A study of Talpa occidentalis with 24 samples.

Results

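Bivalent promoter regions of the mouse gonads are stretches that the authors' chromatin state map labels as bivalent promoter in the ovary, the testis or both. They were chosen by this measured state: every bivalent promoter segment of at least 400 bp on chromosomes 1 to 19 in either tissue was taken, and segments of the 2 tissues were merged where they shared a base. Regions touching 4 windows around the Hox clusters were left out, which removed 57 regions. This gave 12909 regions spanning 20.3 Mb, of the 13438 that the same rule finds over all mouse chromosomes with the Hox windows included. Of these, 4010 were bivalent in ovary only (31.1%, Wilson 95% interval 30.3 to 31.9), 5290 in testis only (41.0%, 40.1 to 41.8) and 3609 in both (28.0%, 27.2 to 28.7). Because the rule reads the bivalent state in both tissues, these sizes describe the selection and carry no test.

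A bivalent promoter carries trimethylation of lysine 4 of histone H3, a mark of promoters that are active or ready to be used, together with trimethylation of lysine 27, which the Polycomb repressive complex lays down on silent genes. The combination is best known from embryonic stem cells, where it marks promoters of developmental regulators that are silent but can later be turned on or shut off. In the fetal gonad, an initially common primordium takes either the ovarian or the testicular course, with somatic supporting cells, steroidogenic precursors, germ cells and vessels in one tissue.

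The series used chromatin immunoprecipitation with sequencing for 4 histone marks, H3K4me3, H3K4me1, H3K27ac and H3K27me3, on gonads of the Iberian mole at postnatal day 7 and of the mouse at embryonic day 13.5. The mouse gonads were fixed whole, while the sources used here give neither their genotype nor the number of embryos pooled. The 24 labelled samples are all of mole, and their titles mark them as wild type (Wt). Each mouse tissue is therefore represented by 1 deposited segmentation, which no label ties to a sample. The number of replicates behind each map is unknown. No difference between ovary and testis could therefore be tested, and every value below describes these 2 maps. Wilson intervals cover counting error only, and neighbouring regions are not independent.

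Each map gives 1 of 7 states to every bin of 200 bp. By their names, promoter and bivalent promoter are the states of gene starts, active and poised enhancer those of distal elements, Polycomb repression that of silenced chromatin, and the rest is undefined or gap. The marks that define a state, the extent meant by gap and the depth of sequencing were not given in the sources used here. Gonads were bulk tissue, so both marks on the same chromosome copy cannot be told apart from one mark in some cells and the other mark in other cells. Gene names are not used, since no mouse annotation was at hand, and regions are named by their mm9 coordinates.

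The ovary had fewer but longer bivalent segments than the testis. The state covered 0.703% of the autosomal bases in ovary and 0.378% in testis, while the promoter state was close in extent, with 0.805% and 0.772%. Outside the Hox windows there were 7790 bivalent segments of at least 400 bp in ovary, with a median of 1400 bp, and 9512 in testis, with a median of 600 bp. Segments of at least 4000 bp numbered 927 in ovary and 123 in testis. Segments of at least 10000 bp numbered 192 and 7. The Polycomb repression state covered 26.5% of bases in ovary and 25.5% in testis. Depth and antibody yield were not compared between the tissues, and their part in these extents was not tested.

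Region length varied between the subgroups. Regions bivalent in both tissues had a median length of 2200 bp and reached 43800 bp. Their length is that of the merged segments of both tissues, which merging can only lengthen; within them the median bivalent extent was 2000 bp in ovary and 1000 bp in testis. Those bivalent in ovary only had a median of 1000 bp and reached 17400 bp. Those bivalent in testis only had a median of 400 bp, the shortest length the rule admits, and reached 4800 bp. At exactly 400 bp lay 2975 of the testis-only regions (56.2%), 714 of the ovary-only regions (17.8%) and 115 of those in both (3.19%). Just outside the limit, segments of 200 bp numbered 1264 in ovary and 4354 in testis, against 1112 and 3686 segments of 400 bp. With a minimum of 1000 bp, ovary-only regions made up 58.5% of the regions and testis-only regions 12.8%.

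**Figure D1:**
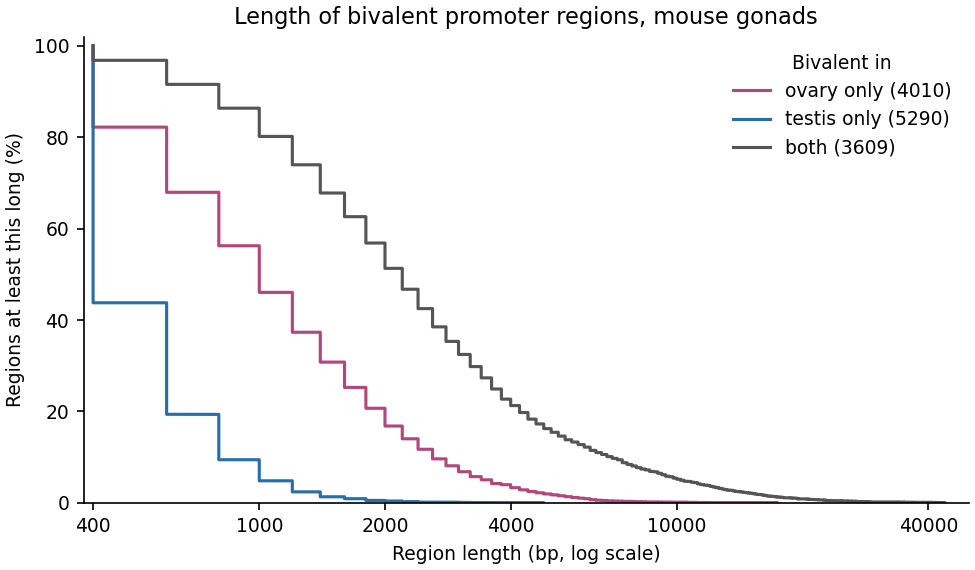
Share of regions (y axis, %) that are at least as long as the value on the logarithmic x axis (bp), for regions bivalent in ovary only, in testis only and in both. The testis-only curve drops at once from 100% to 43.8%, since 2975 of its 5290 regions are 400 bp long, and the curve for both tissues lies farthest right, with a median of 2200 bp.

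Most bivalent regions were called in 1 tissue only, as were most regions of every other state that was merged in the same way. The share was 72.0% for bivalent promoter regions, 71.8% for poised enhancer, 65.7% for Polycomb repression, 63.3% for active enhancer and 53.3% for promoter regions. The bivalent share was thus near that of the poised enhancer state and above that of the promoter state. Counted from each side, 52.6% of the 7619 regions bivalent in ovary were not bivalent in testis, and 59.4% of the 8899 regions bivalent in testis were not bivalent in ovary. For promoter regions the same shares were 37.6% and 34.9%, and for poised enhancer regions 54.6% and 57.2%. They were 49.3% and 48.5% for Polycomb repression, and 48.9% and 43.5% for active enhancer.

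Regions with more bivalent bases in a gonad were more often also bivalent in the other. Of ovary regions with 400 to 600 bivalent bases, 31.2% were also bivalent in testis (583 of 1869, Wilson 29.1 to 33.3). For 2200 to 4000 bases the share was 64.1% (966 of 1507), and for 8200 bases or more it was 96.8% (270 of 279). In the opposite direction the shares climbed faster with the number of bivalent bases. They were 21.1% for testis regions of 400 to 600 bases (1139 of 5405), 79.9% for 1200 to 2000 bases (928 of 1162) and 95.8% for 2200 to 4000 bases (435 of 454). All 27 testis regions with 8200 bases or more were also bivalent in ovary, with a Wilson interval from 87.5% to 100%. Some of these 27, described below, sum several testis segments, and the merging fixed their outcome. A longer region has more bases at which an overlap can occur, and this was not corrected for. The bases are also summed over all segments of a gonad in a region. Several segments of a gonad share a region only where a segment of the other gonad joins them. Such a region is bivalent in both by the rule. This held for 424 regions with several testis segments and 151 with several ovary segments, and was not corrected for either.

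The ovary-only regions were mostly under Polycomb in the testis. Of their bases, 71.2% were in the Polycomb repression state there, 25.5% in the poised enhancer state and 1.56% in the promoter state. Over all autosomal bases of the testis the same states took 25.5%, 17.7% and 0.772%. Taken region by region, Polycomb repression was the state with most bases, here called the leading state, in 2423 of 4010 regions (60.4%, Wilson 58.9 to 61.9). The poised enhancer state led in 1207 (30.1%) and the promoter state in 87 (2.17%). In 286 regions (7.13%) several states held the same number of bases, and in 194 of these they were the poised enhancer and the Polycomb repression state. In 1510 regions (37.7%) every base was in the Polycomb repression state in testis.

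In the ovary, promoter was the most frequent state of the testis-only regions. Of their bases, 53.7% were in the promoter state there, 17.9% in the poised enhancer state, 17.5% in the active enhancer state and 6.48% in the Polycomb repression state. Over all autosomal bases of the ovary the same states took 0.805%, 15.6%, 12.8% and 26.5%. The promoter state led in 2635 of 5290 regions (49.8%, Wilson 48.5 to 51.2). It led in 37.8% when the subgroup was formed anew with a minimum of 1000 bp in both tissues. That set also takes in regions with a shorter bivalent segment in ovary, so it is not the longer part of the 5290. Among the 5290 regions, the poised enhancer state led in 680 (12.9%). The active enhancer state led in 445 (8.41%) and Polycomb repression in 239 (4.52%). The states were tied in 1215 regions (23.0%), with a median length of 400 bp, and in 742 of these the tie was between promoter and active enhancer. In all, 3786 testis-only regions held at least 1 bin of ovary promoter state, and 1903 (36.0%) lay wholly within it.

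Set side by side, the subgroups were in different states in the other gonad. Polycomb repression took 71.2% of ovary-only bases in testis and 6.48% of testis-only bases in ovary. Promoter state took 1.56% and 53.7%. Over all autosomal bases, 2265 kb were promoter in ovary and bivalent in testis, and 172 kb were bivalent in ovary and promoter in testis. Conversely, 9507 kb were bivalent in ovary and under Polycomb repression in testis, and 362 kb were bivalent in testis and under Polycomb repression in ovary. Promoter regions called in 1 tissue only gave another picture. Those of the ovary were active enhancer over 32.0% of their bases in testis, bivalent over 21.2% and under Polycomb repression over 8.68%. Those of the testis were active enhancer over 61.6% of their bases in ovary, bivalent over 1.95% and under Polycomb repression over 5.32%.

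**Figure D2:**
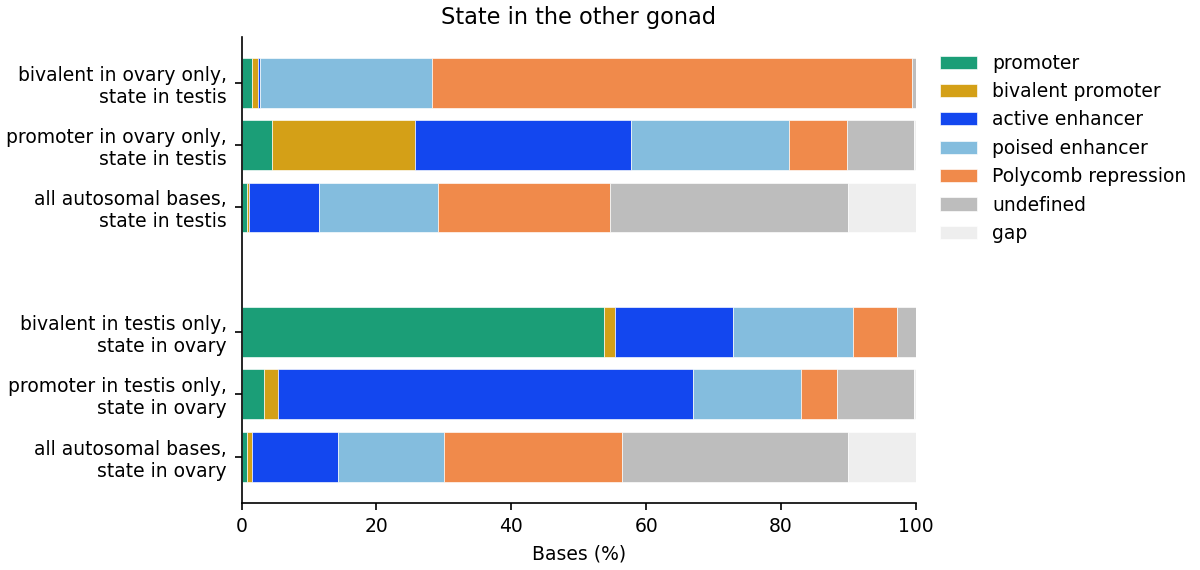
Share of bases (x axis, %) in each of the 7 states in the other gonad, for regions bivalent in 1 gonad only, for promoter regions of 1 gonad only and for all autosomal bases. Polycomb repression fills 71.2% of the ovary-only bar, and the promoter state 53.7% of the testis-only bar.

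Among the ovary-only regions, the state in testis varied with length. In those of 400 to 600 bp, Polycomb repression led in testis in 40.2% and the poised enhancer state in 42.9%. In those of 1200 to 2000 bp the shares were 71.5% and 22.8%, and in those of 4200 to 8000 bp they were 94.3% and 4.88% of 123 regions. Regions led by Polycomb repression had a median of 1400 bp, those led by the poised enhancer state 800 bp and those led by promoter 600 bp. Among all testis-only regions, tied ones included, the promoter state led in a like share at each length up to 2000 bp. It led in 49.3% at 400 to 600 bp, 52.9% at 800 to 1000 bp and 51.7% at 1200 to 2000 bp. Tied regions have no leading state, and their median length was 400 bp in both subgroups. Shares among untied regions alone were not computed by length. Of the 19 testis-only regions of 2200 to 4000 bp, promoter led in 26.3% and Polycomb repression in 31.6%.

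**Figure D3:**
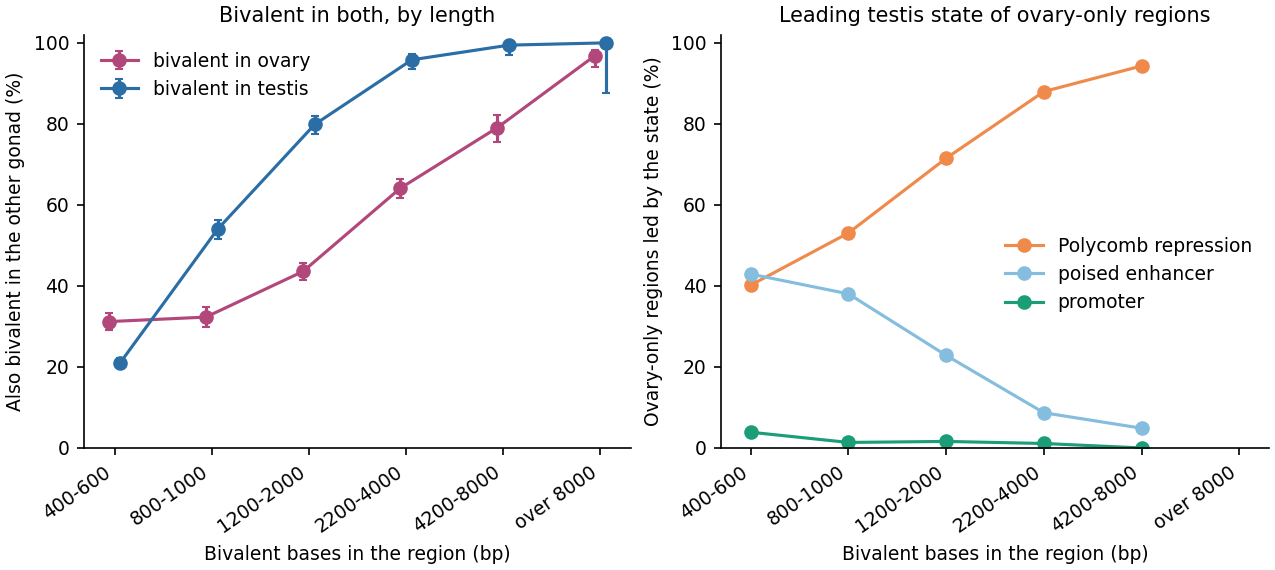
Left, share of regions also bivalent in the other gonad (y axis, %) by the number of bivalent bases in the first gonad (x axis, bp), with Wilson 95% intervals as bars. Bases are summed over a region's segments, and regions with several segments of a gonad are bivalent in both by the rule. Right, share of ovary-only regions led by each state in testis, by the same length classes, for classes with at least 20 regions; Polycomb repression goes from 40.2% to 94.3%.

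The regions just inside and just outside the length limit can be set beside each other. Formed with a minimum of 200 bp, testis-only regions of 200 bp numbered 3918, of which 58.1% were promoter and 23.2% active enhancer in ovary. Those of 400 bp numbered 2904, of which promoter led in 44.2%, active enhancer in 7.44%, and 34.2% were tied. Ovary-only regions of 200 bp numbered 841, with 55.3% poised enhancer and 31.3% Polycomb repression in testis. Those of 400 bp numbered 673, with 45.0% led by poised enhancer, 33.6% by Polycomb repression and 16.3% tied. A region of a single bin cannot be tied, so the shares at the 2 lengths are not on equal terms.

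Most testis-only regions adjoined promoter state in their own tissue. In the testis itself, 3144 of the 5290 (59.4%) adjoined the promoter state on at least 1 side, and 2619 (49.5%) had promoter state on one side and poised enhancer state on the other. Polycomb repression adjoined 1100 (20.8%). The bivalent stretches of the other subgroups sat differently. In ovary, 344 of 4010 ovary-only regions (8.58%) adjoined promoter state and 3125 (77.9%) adjoined Polycomb repression. Of regions bivalent in both, the ovary part adjoined promoter state in 560 of 3607 (15.5%) and the testis part in 333 (9.23%), leaving out 2 regions at the end of a chromosome's map.

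Seen from the ovary, 3667 of 27162 promoter segments (13.5%) overlapped a testis-only region, in whole or in part. Their median length was 1000 bp. In testis, 41.0% of their bases were bivalent and 49.3% were promoter, and 2452 of the segments (66.9%) had some promoter state. Seen from the testis, 146 of 25404 promoter segments (0.575%) overlapped an ovary-only region, and 57 of these segments (39.0%) had some promoter state in ovary. Among the 2635 testis-only regions led by promoter in ovary, 1814 (68.8%) had promoter state adjoining in testis. Among the 680 led by poised enhancer this was 24.9%, and among the 239 led by Polycomb repression 9.62%.

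The surroundings, which the rule did not use, also set the testis-only regions apart from the others. Within 5 kb on each side of ovary-only regions, other regions left aside, Polycomb repression took 53.3% of bases in ovary and 45.8% in testis, and active enhancer 4.60% and 4.30%. Around regions bivalent in both the values were 51.3% and 43.4% for Polycomb repression, and 5.18% and 4.66% for active enhancer. Around testis-only regions Polycomb repression took 16.5% in ovary and 16.0% in testis, and active enhancer 31.9% and 18.5%. Poised enhancer took 21.8% in ovary and 35.5% in testis around the same regions. Promoter regions found in both tissues, as a comparison, had 9.80% and 9.95% Polycomb repression in their flanks, 48.7% and 33.0% active enhancer, and 18.1% and 33.1% poised enhancer. The lower active and higher poised enhancer share in testis was therefore present around shared promoters too.

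The nearest active enhancer state was close to the testis-only regions and far from the others. The median distance in testis was 1400 bp from testis-only regions, 8400 bp from ovary-only regions and 8600 bp from regions bivalent in both. Promoter state lay within 5 kb in testis for 71.1% of testis-only regions, 16.3% of ovary-only regions and 19.8% of regions bivalent in both. Within the testis-only subgroup, the 239 regions led by Polycomb repression in ovary stood apart from the rest. Their median distance to active enhancer state was 17000 bp in ovary and 19800 bp in testis.

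**Figure D4:**
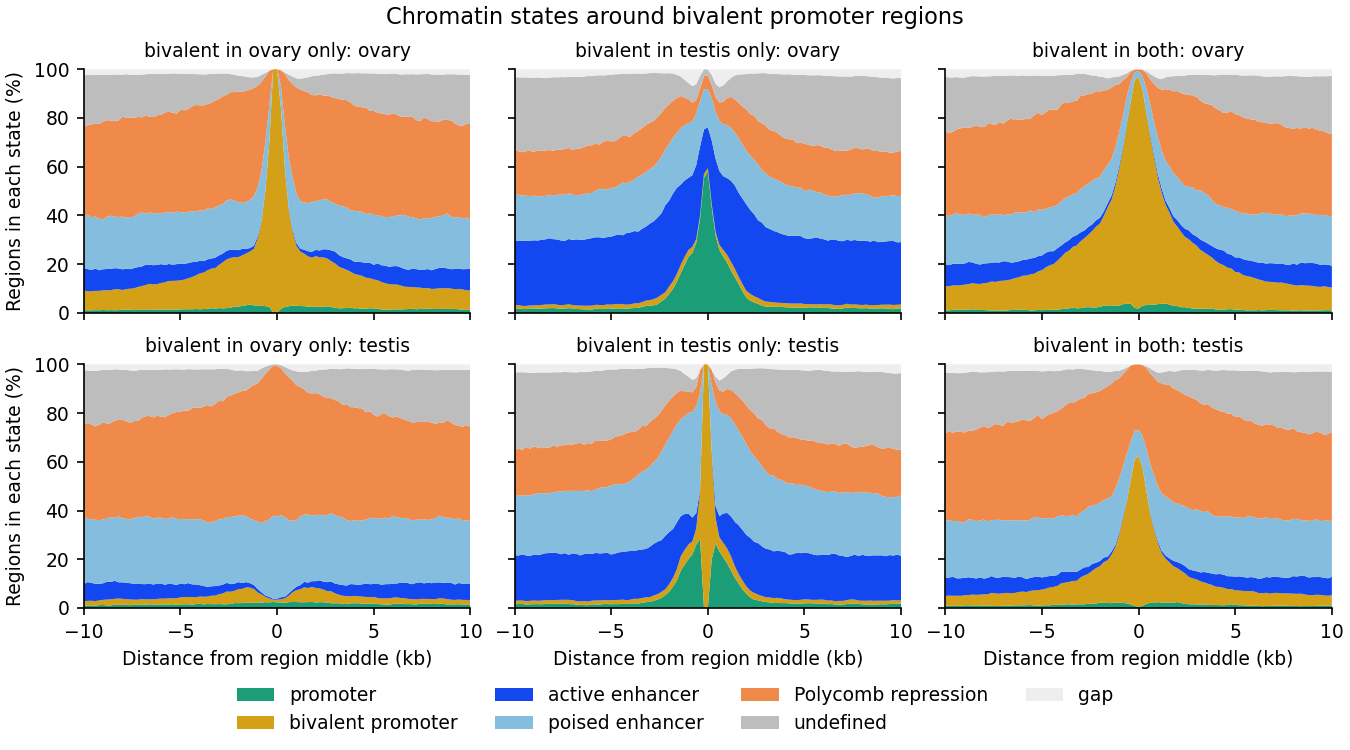
Share of regions in each state (y axis, %) by distance from the region's middle (x axis, kb), in ovary (top) and testis (bottom), for regions bivalent in ovary only, testis only and both. At the middle, 58.0% of the 5287 testis-only regions with 10 kb of map on each side are promoter in ovary and 61.8% of ovary-only regions are under Polycomb repression in testis; 100% at the middle in a region's own tissue comes from the rule.

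Regions bivalent in both tissues were more extensive in the ovary. Together they held 11.2 Mb of bivalent bases in ovary and 5.33 Mb in testis, of which 4.69 Mb were shared. This was 41.9% of the ovary's bases and 88.0% of the testis's. Per region the median was 2000 bp in ovary and 1000 bp in testis, and the median ratio of testis to ovary was 0.538 (10th to 90th percentile 0.218 to 1.43). Where at least 50% of a region's bases had to be bivalent in a tissue to count, 15.1% of regions were bivalent in both and the median ratio was 0.848. That rule takes regions with a small part in either tissue out of this subgroup, so it bounds how unequal the parts can be. The ovary had more bivalent bases in 2647 of 3609 regions (73.3%, Wilson 71.9 to 74.8), the testis in 553 (15.3%), and 409 (11.3%) were equal. In 2056 regions (57.0%) the testis part lay inside a longer ovary part, and in 402 (11.1%) the reverse held. The bounds were identical in 271.

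Within these regions, bases bivalent in ovary alone were mostly under Polycomb in testis. Of the ovary's bivalent bases that were not bivalent in testis, 81.5% were in the Polycomb repression state there and 17.2% in the poised enhancer state. Of the fewer testis bases not bivalent in ovary, 43.7% were poised enhancer there, 31.1% promoter and 21.5% Polycomb repression. Within 1872 ovary stretches of at least 2000 bp in these regions, divided into 10 equal parts, testis bivalence was highest in the middle. It took 34.0% and 33.7% of the outermost parts and 45.0% and 44.9% of the central ones. Polycomb repression in testis took 50.5% at both ends and 44.3% and 44.5% in the centre. The testis part had more than 1 segment in 424 regions (11.7%), against 151 (4.18%) for the ovary part. Several segments of a gonad enter 1 region only where a segment of the other gonad joins them. These counts therefore depend on the merging and on the longer ovary segments, and are not a separate result.

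The longest regions bivalent in both show this nesting. At chr9:91276801-91318800 an unbroken stretch of 42000 bp was bivalent in ovary. In testis 8200 bp of it were bivalent, 33600 bp were under Polycomb repression and 200 bp poised enhancer. At chr1:19193201-19234000, 40800 bp were bivalent in ovary and 7800 bp in testis, where the other 33000 bp were under Polycomb repression. At chr1:78176201-78213200, 37000 bp were bivalent in ovary and 9600 bp in testis. At chr3:128897201-128932200 the extents were 35000 bp and 17600 bp, and 800 bp were promoter in testis. In each of these 4 regions the testis held several shorter bivalent stretches separated mainly by Polycomb repression.

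The longest region of all differed. At chr11:3049401-3093200, 43200 bp were bivalent in ovary and 43800 bp in testis. It lies within 500 kb of a gap-state segment of at least 1 Mb at the start of the chromosome's map. Of 585 regions of at least 5000 bp that were bivalent in both, 29 had a testis extent of at least 85% of the ovary's. Within 500 kb of such a gap segment lay 10 of the 585, and all 10 were among these 29. Over the 585 regions the median ratio was 0.355. Repeat content and mapping were not analysed here, and their part in these regions was not tested. Leaving out all 212 regions near such gaps gave a median ratio over regions bivalent in both of 0.519, against 0.538 with them.

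**Figure D5:**
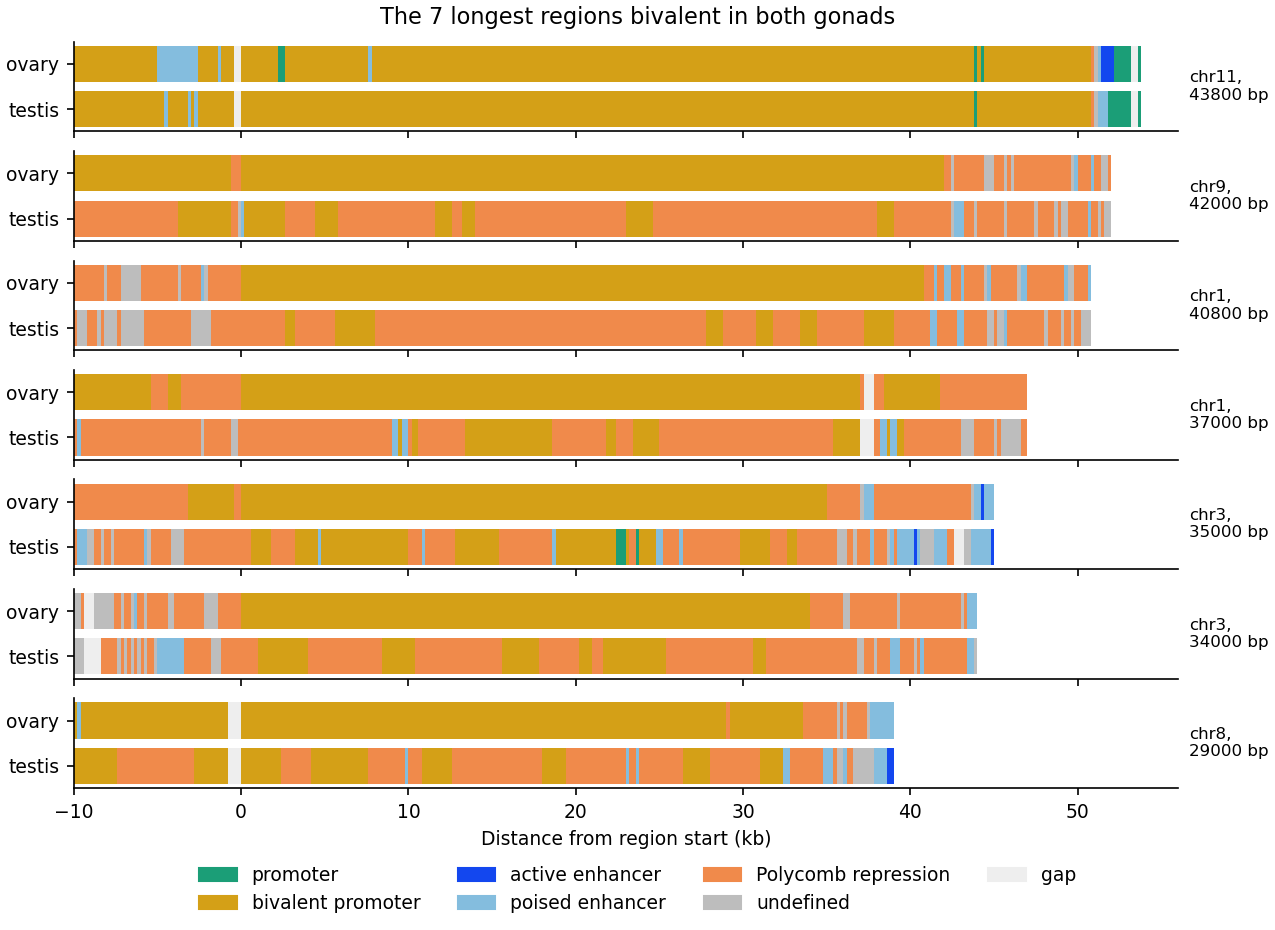
States along the 7 longest regions bivalent in both gonads, with 10 kb on each side; the x axis is the distance from the region's start (kb), and each pair of tracks shows ovary above testis. Only the chr11 region is bivalent over a like extent in both, with 43200 bp and 43800 bp; the next longest, on chr9, has 42000 bp and 8200 bp.

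The longest ovary-only regions were almost wholly Polycomb in testis. At chr1:19088201-19105600 all 17400 bp were bivalent in ovary, and 17200 bp were under Polycomb repression in testis. At chr11:98176401-98188400 all 12000 bp, and at chr4:115612601-115623200 and chr6:83641201-83651800 all 10600 bp each, were under Polycomb repression in testis. At chr4:116985401-116996600, 9600 of 11200 bp were, and 1600 bp were poised enhancer. Some of these regions lay beside chromatin that was bivalent in testis. Within 5 kb on each side, the testis was bivalent over 48% of bases at chr4:115612601-115623200 and 24% at chr6:83641201-83651800. Beside the chr1, chr11 and chr4:116985401-116996600 regions this share was 0%. The longest ones led by poised enhancer were chr6:51716601-51722400, with 4400 of 5800 bp in that state, chr18:34707201-34712600, with 2800 of 5400 bp, and chr6:51810001-51815000, with 2800 of 5000 bp.

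The 87 ovary-only regions led by promoter in testis were short, and the longest were almost wholly promoter there. At chr10:22533601-22537000, 3200 of 3400 bp were promoter in testis. At chr10:22540201-22543000 all 2800 bp were, and at chr11:85648201-85651200 all 3000 bp were.

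Among the longest testis-only regions, some were promoters in ovary and some were not. At chr13:21258401-21262000, 3400 of 3600 bp were promoter in ovary. At chr3:130813601-130816000 all 2400 bp were, and at chr14:12387001-12389400, 2000 of 2400 bp were. The longest ones led by active enhancer in ovary were 2200 bp long: chr11:50193001-50195200, with 1800 bp in that state, chr16:38091001-38093200, with 1400 bp, and chr4:146796001-146798200, with 1200 bp. Those led by Polycomb repression in ovary included the longest testis-only region, chr13:13027401-13032200. Of its 4800 bp, 2600 bp were under Polycomb repression and 2000 bp poised enhancer in ovary. At chr5:105351801-105354800 all 3000 bp were under Polycomb repression, and at chr4:145661201-145664400, 1400 of 3200 bp were. Those led by poised enhancer were chr13:12965001-12968200, with 2400 of 3200 bp, chr13:62465201-62467800, with 2400 of 2600 bp, and chr3:58221001-58223400, with 1000 of 2400 bp. Of the 72 regions led by the undefined state, the longest was chr4:145669601-145672000, with 1200 of 2400 bp; chr5:37727401-37728600 and chr15:75534001-75535200 followed, with 600 of 1200 bp each.

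Linked at up to 50 kb, the regions formed 6187 groups, of which 3400 held 1 region and 440 held at least 5. The groups of at least 5 took in 3688 of all regions (28.6%). By subgroup they took in 1631 of the ovary-only regions (40.7%), 1058 of those in both (29.3%) and 999 of the testis-only regions (18.9%). The median gap to the nearest other region was 1200 bp for ovary-only regions and for those in both, and 30600 bp for testis-only regions. No other region lay within 50 kb of 2049 testis-only regions (38.7%), against 548 ovary-only regions (13.7%).

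The groups with the most bivalent bases in ovary had far fewer in testis. The group at chr5:120075601-120319000 held 24 regions, of which 17 were ovary only and none testis only. It had 105600 bivalent bases in ovary and 19200 in testis. The group at chr8:87225801-87552000 held 34 regions, with 85400 bases in ovary and 15800 in testis. At chr19:45113601-45321600, 20 regions held 79200 and 21800 bases. By difference the third was chr2:164859201-165195400, where 22 of 26 regions were ovary only, with 64200 bases in ovary and 2200 in testis.

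A few groups went the other way. The group at chr13:12856401-13033800 held 33 regions, of which 14 were testis only and 2 ovary only, with 33000 bivalent bases in ovary and 75600 in testis. At chr4:146764001-146973800, 20 of 31 regions were testis only, with 9400 bases in ovary and 49800 in testis. At chr4:145661201-145744000, 15 of 20 were testis only, with 3200 and 25600 bases. Of the testis-only regions named above as led by another state than promoter in ovary, 5 lie in these 3 groups. The group with most testis bases was chr11:3000001-3100200, which contains the chr11 region beside the gap segment, with 73200 bases in ovary and 80800 in testis. Whether reads map uniquely in these groups was not analysed here.

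The subgroup shares varied between chromosomes within a moderate range. Regions per Mb outside the gap state lay between 3.99 on chromosome 14 and 8.83 on chromosome 11. The ovary-only share lay between 21.2% on chromosome 16 and 36.4% on chromosome 7, and the testis-only share between 37.8% on chromosome 4 and 49.3% on chromosome 16. Polycomb repression led in testis in 47.8% of ovary-only regions on chromosome 18 and in 71.4% on chromosome 17. Promoter led in ovary in 44.3% of testis-only regions on chromosome 12 and in 55.8% on chromosome 6. The median ratio of testis to ovary bases in regions bivalent in both was below 1 on all 19 chromosomes, between 0.437 on chromosome 19 and 0.646 on chromosome 16.

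The mole maps, from another species, stage and assembly, are given only beside these values. Bivalent segments of at least 400 bp had a median of 800 bp in the ovarian part of the ovotestis, in its testicular part and in the testis. They numbered 11592, 10646 and 11740.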

How the data were processed

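The measurements are chromatin state segmentations of mouse ovary and testis at embryonic day 13.5, 1 per tissue, as deposited by the authors: a state name for each stretch, in multiples of 200 bp. Per the file headers the caller was EpiCSeg, with no version. STAR 2.6.1d and the build mm9 appear in the submitters' processing notes, with no role stated. Filters and read depth were not given in the sources used here, so precision cannot be stated beyond the 200 bp bin. Segments were read into bins with Python 3.11.15, numpy 2.4.6 and pandas 2.3.3, and intervals came from scipy 1.17.1. The region finder was checked on simulated data with known regions, including segments that touch without overlap, which stay separate. A leading state is the one with most bases, and ties have none. Named regions are the 5 longest of each subgroup, the 3 longest for each leading state with at least 20 regions, and the 3 groups within 50 kb with most bivalent bases in ovary, in testis and by difference. The members and lists were chosen with earlier results of these data known. Alternatives are in the closing section. Planned gene lists were not counted, since no mouse annotation was at hand.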

Additional observations from a re-analysis of the deposited data

Results flagged for a closer look

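The X and Y chromosomes lie outside the comparisons above, and bivalent promoter segments of at least 400 bp occurred there too, which is why they are listed. Chromosome X held 230 such segments in ovary and 313 in testis. Chromosome Y held 36 in the ovary map and 78 in the testis map. The embryos behind each map and the mapping of reads to repeated sequence on these chromosomes were not analysed here.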

How the results depend on the processing

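Of the recomputed values, 56 stayed within the counting interval of the reported value, or within 1.5 times the reported number of regions, and 43 moved; the cause was not tested. Shares are given below in the order ovary only, testis only, both, then Polycomb leading in testis among ovary-only regions, promoter leading in ovary among testis-only regions, and the median ratio. The reported values are 31.1%, 41.0%, 28.0%, 60.4%, 49.8% and 0.538. A minimum of 200 bp gave 26.0%, 50.5%, 23.5%, 56.4%, 54.0% and 0.558. A minimum of 600 bp gave 41.2%, 27.7%, 31.1%, 64.6% and 54.9%. A minimum of 1000 bp left 5792 regions, with 58.5%, 12.8%, 68.8% for Polycomb and 37.8% for promoter. Each of these minimums applied to the segments of both tissues, so the subgroups were formed anew. Counting any bivalent base gave 29.3%, 39.2%, 31.5% and 62.0%. Asking for 50% of bases gave 43.4% ovary only, 15.1% both, 64.6% for Polycomb and a ratio of 0.848, which that rule itself bounds. Merging within 1000 bp gave 24.0%, 43.8%, 32.2%, 52.2% for promoter and a ratio of 0.5. Shares of bases in place of leading states were 71.2% for Polycomb and 53.7% for promoter, and the middle bin gave 58.1% for promoter. Chosen after seeing the data, a minimum of 1000 bp in ovary against 400 bp in testis gave 20.2%, 54.7%, 25.0%, 74.2%, 43.9% and 0.439. Also chosen then, joining touching segments gave 28.8% both, and giving ties to the state listed first gave 67.5% for promoter. Flanks led by Polycomb repression in ovary were 71.1% of ovary-only regions at 5 kb and 63.7% at 20 kb. Flanks led by active enhancer in ovary were 45.1% of testis-only regions at 5 kb, 46.7% at 2 kb and 37.3% at 20 kb. The order of the ovary-only and testis-only counts turned at a minimum of 600 bp and of 1000 bp and when 50% of bases were asked for. With each chromosome left out in turn, with the Hox windows kept and without regions holding gap state, these 6 values stayed within their intervals. No paired analysis was possible because each mouse tissue has 1 map and the result comes from no test.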

Other observations

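On the mitochondrial chromosome, 3 segments totalling 5400 bp were in the bivalent promoter state in the testis map and none in the ovary map. Background signal and the mapping of reads on this chromosome were not analysed here, and no difference between the gonads is drawn from these calls.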
